A study of Malus domestica with 99 samples.

Results

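The Aux/IAA genes IAA2, IAA4, IAA5, IAA11 and IAA12 were followed in the fruit cortex of apple, Malus domestica, after harvest. They were found by gene symbol in a RefSeq apple gene table, and each matched 1 transcript entry, so that 5 of 55627 entries are described here: IAA2 (NM_001293866), IAA4 (NM_001300877), IAA5 (NM_001293946), IAA11 (NM_001293857) and IAA12 (NM_001294008). Transcripts were measured by RNA sequencing in the cultivars Golden Delicious, Granny Smith and Fuji. Treated fruit had been held overnight at harvest in a sealed container with 1-MCP (1-methylcyclopropene), a gas that occupies the receptors of ethylene so that the hormone is not perceived, and control fruit had not. Each cultivar had 1-MCP fruit and control fruit at day 1, 7, 14 and 21 and at 2 months after harvest, and 1 group sampled at harvest, with 3 libraries labelled per group and 33 groups in all.

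Aux/IAA proteins are repressors in the auxin pathway. They bind auxin response factors (ARFs) on the promoters of auxin-regulated genes and, with co-repressors, keep those genes off. Auxin joins an Aux/IAA protein to an F-box receptor of the TIR1/AFB family, the repressor is then degraded, and the ARF is set free. Many Aux/IAA genes are themselves induced by auxin, which makes their transcripts both a feedback on the pathway and a common readout of it. In tomato, single Aux/IAA genes are known to affect fruit set and ethylene responses. The roles of the single apple genes are not given by the gene table, and the numbers in their names need not match those of other species.

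Levels are the authors' group means on a log2 scale, with a floor of -1 that stands for no reads. One value per group was deposited, so no spread between replicate fruit can be given with a level, and the depth of the libraries is unknown. Low values fitted 3 libraries per group in 31 of 33 columns and 2 libraries in Fuji control fruit at day 14 and Fuji 1-MCP fruit at 2 months. IAA2 lay outside the part of the Fuji table used here (27230 entries) and is described in Golden Delicious and Granny Smith. Differences are log2 differences, 1-MCP minus control unless another pair is named. They were tested with limma on the differences of the 3 cultivars, so that a p-value weighs an effect against its spread between cultivars, with Benjamini-Hochberg adjustment over all entries tested. A gene is said to have risen or fallen where the adjusted p was under 0.05. For IAA2 the units were days 7, 14 and 21 within a cultivar, and both cultivars had to pass with the same sign. Every test within 1 cultivar or between 2 cultivars had these days as units, so its p-value weighs an effect against its spread between days. Days of 1 cultivar share a fruit lot. The tests moderate the spread along a trend with the mean level, a setting chosen after a first run along the mean difference, which is limma's default for such differences, had been seen. That first run called IAA4, IAA11 and IAA12 and 6052 of 20999 entries over days 7 to 21, and it called 0 entries in each comparison at a single time, between times, between cultivars or against harvest (1953 to 8875 with an unadjusted p under 0.05). Every call of those kinds given here therefore holds with the trend on the mean level and not with that default. In tissue RNA, fewer cells that hold a transcript and less of it per cell cannot be told apart. All 5 genes passed the filter on low values, IAA5 through 8 of its 33 columns and the others through every column they had.

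Transcripts of 4 of the 5 genes were higher in 1-MCP fruit than in control fruit through days 7 to 21. IAA4 rose by 2.37 (SE 0.28, adjusted p 0.00845, limma), which is 5.18-fold. IAA11 rose by 2.03 (SE 0.37, adjusted p 0.0200), or 4.07-fold, and IAA12 by 1.38 (SE 0.20, adjusted p 0.0123), or 2.60-fold. IAA2 rose by 1.10 in Golden Delicious (SE 0.15, adjusted p 0.00435) and by 0.99 in Granny Smith (SE 0.10, adjusted p 0.00145), about the size of a doubling in each. IAA5 was not called (-0.48, SE 0.46, adjusted p 0.453). Among all entries with Fuji values 18.5% were called higher by the same rule, and among entries without them 14.5% were called higher in both cultivars. The median over the members was 1.36 in Fuji, 1.44 in Granny Smith and 1.10 in Golden Delicious, beside medians over all entries tested of 0.03 in Fuji, 0.03 in Granny Smith and 0.02 in Golden Delicious. The IAA4 call held under each alternative run (adjusted p 0.00579 to 0.0449). The calls of IAA11 (adjusted p 0.0728) and IAA12 (0.0584) were lost without Fuji, that of IAA11 also without Granny Smith (0.0553), and that of IAA2 in Golden Delicious without day 14 (0.0758) or without a filter (0.0807).

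**Figure D1:**
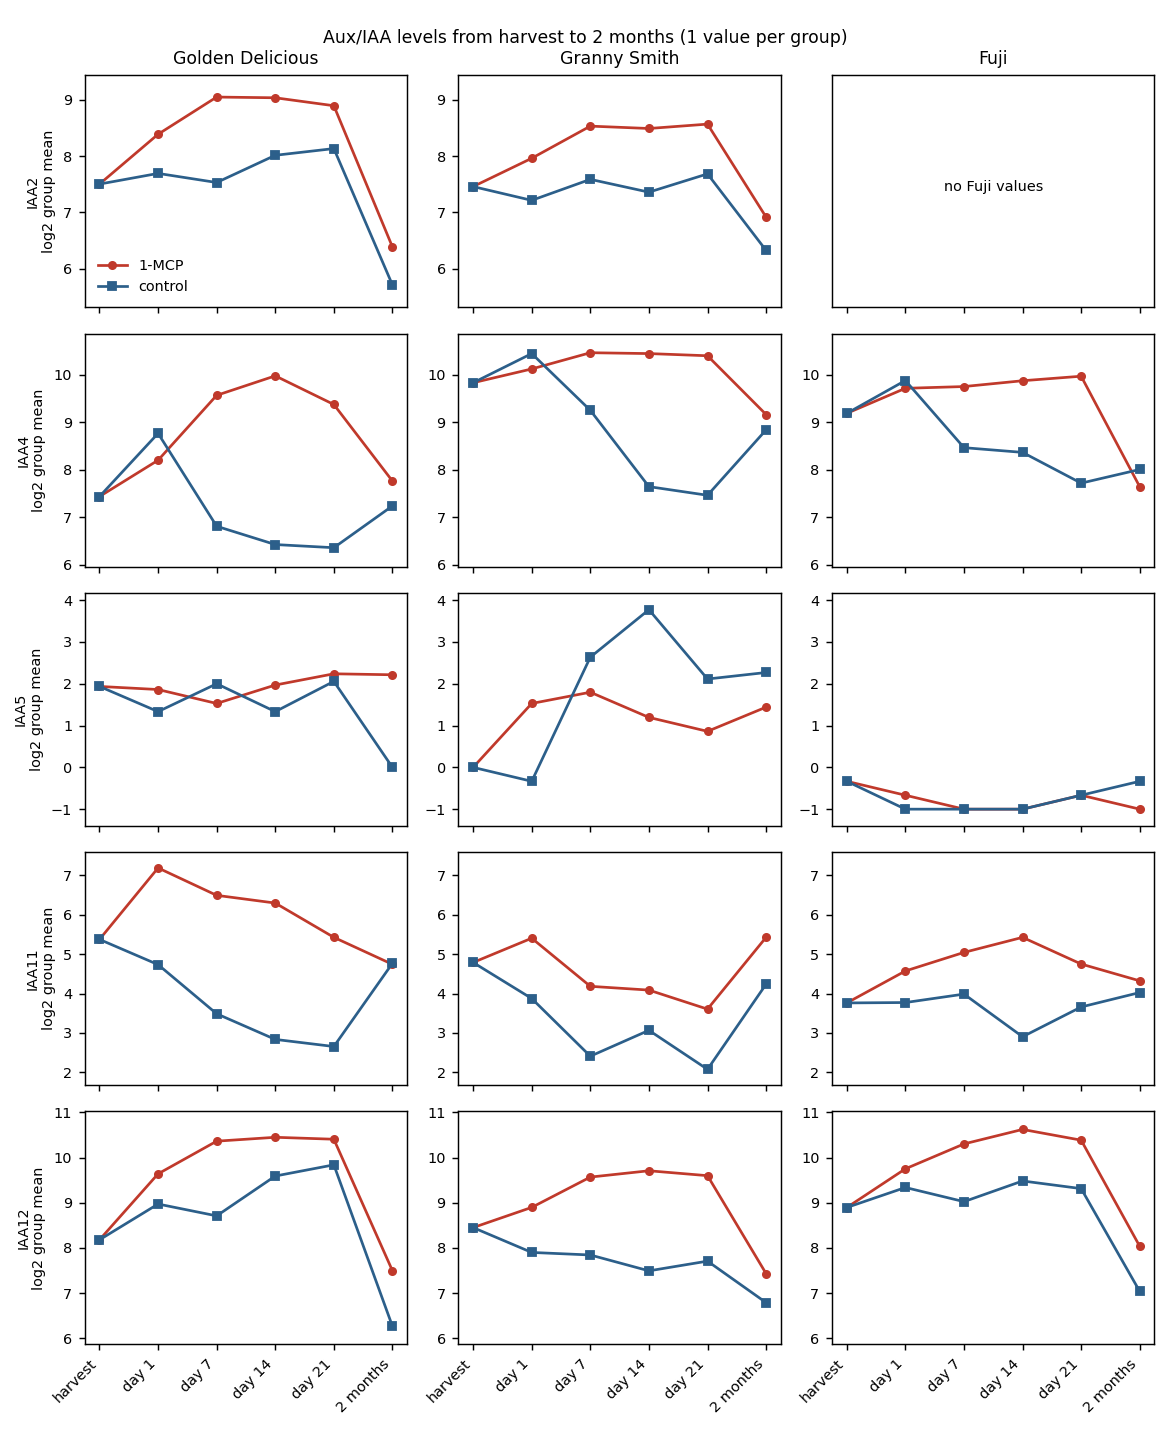
Log2 group means (vertical axis, shared along each row) of the 5 Aux/IAA genes from harvest to 2 months (horizontal axis, not to scale) in 3 cultivars, with 1-MCP fruit as circles and control fruit as squares, and 1 point per group. The control line of IAA4 lies below the 1-MCP line at days 7 to 21 in each cultivar, as does that of IAA11, whereas the IAA2 and IAA12 lines of both treatments drop at 2 months.

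IAA4 had the widest mean gap of the 5 genes in each cultivar, and the gap came with a low level in control fruit. In Golden Delicious its level was 9.57, 9.98 and 9.37 in 1-MCP fruit at days 7, 14 and 21, against 6.81, 6.42 and 6.36 in control fruit. In Granny Smith it was 10.47, 10.45 and 10.40 in 1-MCP fruit, against 9.25, 7.64 and 7.46 in control fruit. In Fuji it was 9.75, 9.88 and 9.97 in 1-MCP fruit, against 8.46, 8.37 and 7.72 in control fruit. The 2 treatments did not overlap within any cultivar, and in every cultivar the lowest of the control values over these days came at day 21. The share of all entries without such an overlap was not worked out. A lack of overlap, here and for the genes below, is therefore a description of the values only. Tested day by day, the difference was 1.75 at day 7 (SE 0.35, adjusted p 0.0285), 2.62 at day 14 (SE 0.39, adjusted p 0.0118) and 2.74 at day 21 (SE 0.18, adjusted p 0.00503), and it was positive in 3 of 3 cultivars each time. The day 7 call was lost without Fuji (adjusted p 0.0868) and that of day 14 without Granny Smith (0.0632), whereas that of day 21 held with any 1 cultivar left out.

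At day 1 IAA4 stood the other way. Its level was 8.20 in 1-MCP fruit against 8.77 in control fruit of Golden Delicious, 10.12 against 10.45 in Granny Smith and 9.72 against 9.88 in Fuji. Both treatments were above harvest, where IAA4 measured 7.43, 9.83 and 9.19 in the same order of cultivars. The day 1 difference was small (-0.35, SE 0.08, adjusted p 0.0413), negative in 3 of 3 cultivars, and lost its call whichever cultivar was left out (adjusted p 0.0710 to 0.191). The effect over days 7 to 21 exceeded that of day 1 by 2.72 (SE 0.35, adjusted p 0.0158), a change called for 9.15% of all entries in that direction; the call was lost without Granny Smith (adjusted p 0.0834).

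IAA11 differed from IAA4 in that its gap was already present at day 1. Its day 1 level was 7.19 in 1-MCP fruit against 4.73 in control fruit of Golden Delicious, 5.40 against 3.87 in Granny Smith and 4.57 against 3.77 in Fuji. That difference averaged 1.60 (SE 0.31, adjusted p 0.0307) and did not pass without Golden Delicious (adjusted p 0.0872), without Granny Smith (0.133) or with 4 added to the values (0.0623). In the following weeks Golden Delicious held 6.49, 6.30 and 5.43 in 1-MCP fruit at days 7, 14 and 21, against 3.49, 2.84 and 2.66 in control fruit. Granny Smith held 4.18, 4.09 and 3.60 in 1-MCP fruit, against 2.41, 3.07 and 2.08 in control fruit. Fuji held 5.04, 5.43 and 4.75 in 1-MCP fruit, against 3.99, 2.90 and 3.66 in control fruit. The treatments did not overlap in any cultivar, and the gap at day 14 in Fuji, 2.52, rests on the control column with 2 libraries. Day by day IAA11 rose by 1.95 at day 7 (SE 0.39, adjusted p 0.0192), 2.33 at day 14 (SE 0.49, adjusted p 0.0273) and 1.80 at day 21 (SE 0.37, adjusted p 0.0360). The call of day 7 was lost without Golden Delicious (adjusted p 0.0512) or Granny Smith (0.0682), that of day 14 without Fuji (0.112) or Golden Delicious (0.0934), and that of day 21 whichever cultivar was left out (0.0733 to 0.116). The change of its effect from day 1 to days 7 to 21 was 0.43 (SE 0.26, adjusted p 0.297) and was not called.

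IAA12 also stood higher with 1-MCP from day 1 on. At day 1 it measured 9.64 in 1-MCP fruit against 8.97 in control fruit of Golden Delicious, 8.90 against 7.90 in Granny Smith and 9.75 against 9.34 in Fuji, a rise of 0.69 (SE 0.11, adjusted p 0.0165) that did not pass without Golden Delicious (adjusted p 0.0927). Over days 7, 14 and 21 its level in Golden Delicious was 10.36, 10.45 and 10.41 in 1-MCP fruit, against 8.71, 9.59 and 9.84 in control fruit. In Granny Smith it was 9.57, 9.71 and 9.60 in 1-MCP fruit, against 7.84, 7.49 and 7.71 in control fruit. In Fuji it was 10.30, 10.62 and 10.38 in 1-MCP fruit, against 9.02, 9.48 and 9.31 in control fruit. No cultivar showed an overlap of the treatments, and 1-MCP fruit varied little between these days. IAA12 rose by 1.55 at day 7 (SE 0.11, adjusted p 0.00120), 1.41 at day 14 (SE 0.28, adjusted p 0.0244) and 1.18 at day 21 (SE 0.27, adjusted p 0.0471). The day 14 call was lost without Fuji (adjusted p 0.0773) and that of day 21 without Fuji (0.163) or Granny Smith (0.0885), whereas that of day 7 held with any 1 cultivar left out. Its effect over days 7 to 21 was larger than at day 1 by 0.69 (SE 0.14, adjusted p 0.0272), a call lost whichever cultivar was left out (adjusted p 0.0503 to 0.125) and without day 7 (0.126).

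IAA2, with values in 2 cultivars, had a course like that of IAA12 in shape, but not in its distance from harvest. In control fruit of Granny Smith, IAA12 differed from harvest by -0.61, -0.96 and -0.74 at days 7, 14 and 21, and IAA2 by 0.13, -0.10 and 0.23. In control fruit of Golden Delicious, IAA12 differed by 0.53, 1.41 and 1.66, and IAA2 by 0.03, 0.51 and 0.63. In 1-MCP fruit of Golden Delicious, IAA12 differed by 2.18, 2.27 and 2.23, and IAA2 by 1.55, 1.53 and 1.39. In Golden Delicious IAA2 measured 8.39 at day 1 in 1-MCP fruit against 7.69 in control fruit. It then measured 9.05, 9.04 and 8.90 in 1-MCP fruit at days 7, 14 and 21 against 7.53, 8.02 and 8.14 in control fruit. In Granny Smith it measured 7.96 at day 1 in 1-MCP fruit against 7.22 in control fruit, and then 8.53, 8.49 and 8.57 in 1-MCP fruit against 7.59, 7.36 and 7.69 in control fruit. The treatments did not overlap at days 7 to 21 in either cultivar. Its effect differed by 0.11 between Golden Delicious and Granny Smith (SE 0.17, adjusted p 0.750), which was not called.

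IAA5 was measured near the floor. In Granny Smith its level at days 7, 14 and 21 was 1.80, 1.20 and 0.86 in 1-MCP fruit, against 2.64, 3.77 and 2.11 in control fruit. The treatments did not overlap in Granny Smith, and 1-MCP fruit was the lower, by 1.56 (SE 0.51). With an adjusted p of 0.0548 across days (limma), this difference was not called. Over the alternative runs its adjusted p ranged from 0.0381 to 0.301. It passed with 4 added to the values (0.0381) and with the trend on the mean difference (0.0484). In Golden Delicious the level of IAA5 was 1.53, 1.97 and 2.24 in 1-MCP fruit, against 2.00, 1.33 and 2.06 in control fruit, and these overlapped. Fuji ranged between -1 and -0.33 over all 11 columns and was at the floor in 6 of them. No difference of IAA5 between treatments was called at any time across cultivars, and at these levels a p-value above the threshold does not show that the treatments were alike.

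Of the 4 members with Fuji values, IAA4, IAA11 and IAA12 were thus called at day 1, 1 lower and 2 higher, where 4.09% of all entries were called lower and 4.48% higher. The same 3 genes were called higher at day 7 (16.8% of all entries), at day 14 (13.3%) and at day 21 (9.23%). These calls at single days depend on the fit: without a filter on low values limma called 1 of the 4 at day 7 and 0 at days 1, 14 and 21, and without its trend and robust options it called 0 at day 1 and 1 at each of days 7, 14 and 21. IAA4, IAA11 and IAA12 were called over days 7 to 21 together in both of these fits (adjusted p 0.0242 to 0.0486). The plot of differences by time shows the sign change of IAA4 and the narrow spread of IAA12 at day 7.

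**Figure D2:**
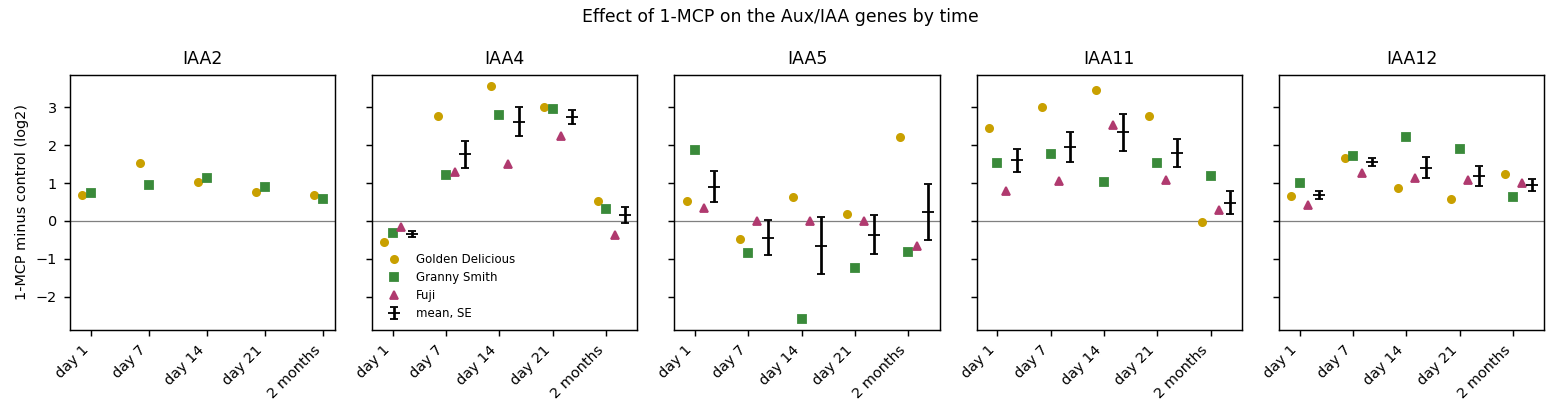
Difference between 1-MCP and control fruit (log2, vertical axis) at each time for the 5 genes, with 1 symbol per cultivar and, for genes with Fuji values, a black bar for the mean over cultivars with its SE from limma (n = 3 cultivars). IAA4 lies between -0.57 and -0.16 at day 1 and between 1.21 and 3.56 at days 7 to 21, and IAA5 scatters on both sides of 0.

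At 2 months IAA4 and IAA11 were not called, and their mean differences were smaller than over days 7 to 21. IAA4 measured 7.76 in 1-MCP fruit against 7.24 in control fruit of Golden Delicious, 9.16 against 8.84 in Granny Smith and 7.64 against 8.01 in Fuji, where the treated column holds 2 libraries. The mean difference was 0.16 (SE 0.20, adjusted p 0.640). The step between day 21 and 2 months (2 months minus day 21, log2) was -1.61, -1.24 and -2.33 for IAA4 in 1-MCP fruit of Golden Delicious, Granny Smith and Fuji, whereas it was 0.88, 1.38 and 0.29 in control fruit. IAA11 stood at 4.74 in 1-MCP fruit against 4.77 in control fruit of Golden Delicious, 5.43 against 4.24 in Granny Smith and 4.32 against 4.03 in Fuji, a difference of 0.49 (SE 0.31, adjusted p 0.364). Its control fruit lay above day 21 in 3 of 3 cultivars, by 0.37 to 2.16. The change of the 1-MCP effect between days 7 to 21 and 2 months was -2.21 for IAA4 (SE 0.18, adjusted p 0.0651) and -1.54 for IAA11 (SE 0.56, adjusted p 0.263), and neither was called. In that comparison limma called 1 of 20999 entries, or 0.00476%, and none of the members. An unadjusted p under 0.05 was found there for 2 members, beside 3589 of 20999 entries. Without day 7 the IAA4 change was called (-2.52, adjusted p 0.0388).

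IAA12 and IAA2 stood far below their earlier levels at 2 months in both treatments, with 1-MCP fruit still above control fruit. IAA12 measured 7.49 in 1-MCP fruit against 6.26 in control fruit of Golden Delicious, 7.43 against 6.79 in Granny Smith and 8.03 against 7.03 in Fuji. It was the 1 member called at 2 months, higher by 0.96 (SE 0.16, adjusted p 0.0312), where 4.37% of all entries were called higher, and the call did not pass without Fuji (adjusted p 0.167) or without Granny Smith (0.0916). IAA2 measured 6.39 in 1-MCP fruit against 5.71 in control fruit of Golden Delicious, and 6.92 against 6.33 in Granny Smith. The step from day 21 was -2.91, -2.17 and -2.35 for IAA12 in 1-MCP fruit of Golden Delicious, Granny Smith and Fuji, against -3.58, -0.92 and -2.28 in control fruit. For IAA2 the same step was -2.51 with 1-MCP against -2.42 without it in Golden Delicious, and -1.65 against -1.36 in Granny Smith. These steps between day 21 and 2 months are given as values and were not tested. IAA5 at 2 months measured 2.21 in 1-MCP fruit against 0.00 in control fruit of Golden Delicious, and 1.44 against 2.27 in Granny Smith.

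Set against harvest, IAA12 lay high in 1-MCP fruit. IAA4 lay above harvest in 1-MCP fruit and below it in control fruit, and of these only the fall was called. In Golden Delicious, Granny Smith and Fuji, in that order, the harvest levels were 7.43, 9.83 and 9.19 for IAA4, 5.37, 4.79 and 3.76 for IAA11, and 8.18, 8.45 and 8.89 for IAA12. IAA2 started at 7.50 in Golden Delicious and 7.46 in Granny Smith. Over days 7 to 21, IAA4 in 1-MCP fruit was 1.16 above harvest (SE 0.36, adjusted p 0.0783, not called), whereas in control fruit it fell by 1.21 (SE 0.19, adjusted p 0.0242). IAA11 was 0.39 above harvest in 1-MCP fruit (SE 0.43, adjusted p 0.527) and 1.63 below it in control fruit (SE 0.49, adjusted p 0.0876), neither of them called. IAA12 rose by 1.65 in 1-MCP fruit (SE 0.21, adjusted p 0.00743), against 0.27 above harvest in control fruit (SE 0.38, adjusted p 0.653, not called). IAA4 was the 1 of 4 members called lower in control fruit, where 8.66% of all entries were, and IAA12 the 1 of 4 called higher in 1-MCP fruit, where 12.8% were. Both contrasts share the harvest columns. The IAA12 call was lost without Fuji (adjusted p 0.0652), and that of IAA4 without Fuji (0.0943) or Golden Delicious (0.0780).

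**Figure D3:**
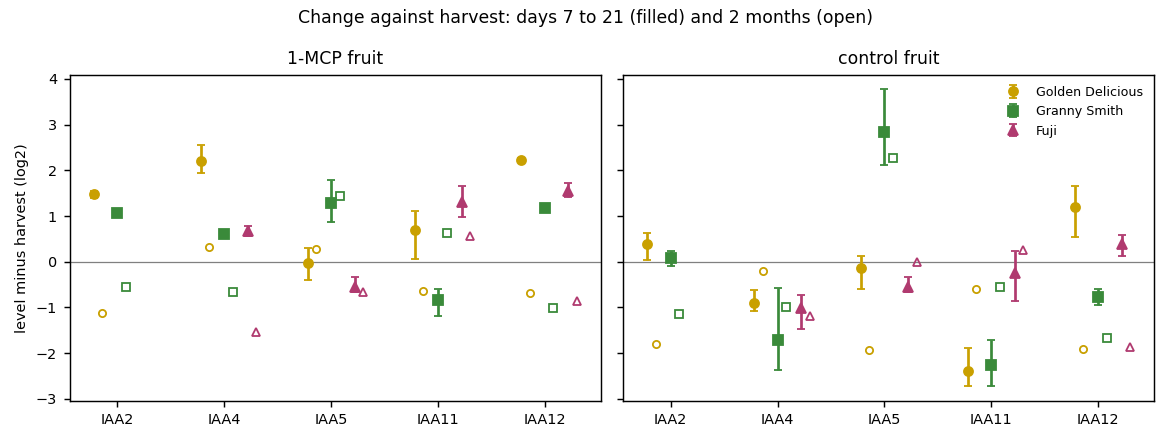
Log2 level minus harvest (vertical axis) in 1-MCP fruit (left) and control fruit (right) for the 5 genes, with filled symbols for the mean of days 7, 14 and 21 of 1 cultivar, bars for the lowest and highest of these days, and open symbols for 2 months. IAA4 lies below harvest in control fruit and above it in 1-MCP fruit at days 7 to 21 in 3 of 3 cultivars, and IAA12 is below harvest at 2 months in both treatments.

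The measured size of the 1-MCP effect over days 7 to 21 varied between cultivars. Days of 1 cultivar share a fruit lot, so cultivar and lot cannot be told apart in these tests. IAA4 differed between treatments by 1.68 in Fuji, 2.32 in Granny Smith and 3.11 in Golden Delicious, and the excess of Golden Delicious over Fuji was 1.43 (SE 0.24, adjusted p 0.0242, limma over 3 days). IAA11 differed by 1.56, 1.44 and 3.08 in the same order, with an excess of Golden Delicious over Fuji of 1.52 (SE 0.29, adjusted p 0.0189) and over Granny Smith of 1.64 (SE 0.34, adjusted p 0.0526, not called). IAA12 had another order, with 1.16 in Fuji, 1.94 in Granny Smith and 1.03 in Golden Delicious, and Granny Smith exceeded Fuji by 0.78 (SE 0.14, adjusted p 0.0170). Between Golden Delicious and Fuji 2 of 4 members were called higher in Golden Delicious, as were 4.17% of all entries, and between Granny Smith and Fuji 1 of 4 was called higher in Granny Smith, beside 3.33%. Between Golden Delicious and Granny Smith limma called 0 of 5, beside 4.01% of all entries. An unadjusted p under 0.05 was found there for 3 of 5, beside 9166 of 42396 entries. The 3 calls rest on days 7, 14 and 21, and each was lost without day 14 (adjusted p 0.0787 for IAA11, 0.0846 for IAA4 and 0.157 for IAA12). Those of IAA4 (0.121) and IAA11 (0.0554) were lost without day 7 as well, and those of IAA11 (0.0868) and IAA12 (0.159) without day 21. Over all entries, 114 were called higher for Golden Delicious over Fuji without day 14, beside 876 with all days. For Granny Smith over Fuji these counts were 141 and 699.

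Among themselves, IAA2 and IAA12 were the pair most alike. After the mean of each cultivar was subtracted, they had a Pearson r of 0.97 over 22 columns. IAA4 had r of 0.65 with IAA11 and 0.60 with IAA12 over 33 columns, and of 0.52 with IAA2 over 22. IAA11 had r of 0.24 with IAA12 and 0.19 with IAA2, and IAA5 had r of -0.30 to 0.14 with the other members. These columns are group means from shared libraries, so the values describe the tables and carry no p. How reads that fit more than 1 Aux/IAA gene were counted is not given in the sources used here, and part of a likeness between members could rest on it, which was not tested. Of 169 named genes compared, those most like IAA2 were IAA12, RIN4-1 (0.83; a RIN4 protein regulates immune signalling in Arabidopsis) and the AP2-domain gene AP2D14 (0.81). Of 84 named genes with Fuji values, those most like IAA12 were RIN4-1 (0.83), BHLH21 (0.69), a basic helix-loop-helix gene, and SOS2 (0.68), named for a kinase of salt tolerance in Arabidopsis. IAA4 was most like ALF6 (0.79), the D-type cyclin CYCD3 (0.79) and the xyloglucan enzyme gene XET02 (0.75), and IAA11 most like GABA-T2 (0.81), a GABA transaminase gene, CYCD3 (0.78) and ALF6 (0.66).

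The other auxin genes with a name in the gene table were divided in the same comparison of days 7 to 21. None of 4 further Aux/IAA genes was called by limma. IAA9 had a difference of -0.83 (SE 0.31, adjusted p 0.103) and IAA8 of 0.81 (SE 0.48, adjusted p 0.245). IAA24 had one of -0.03 (adjusted p 0.946). AUX/IAA7.1 differed by 0.62 in Granny Smith (adjusted p 0.207) and 1.27 in Golden Delicious (adjusted p 0.0166). Of these genes IAA9 alone had an unadjusted p under 0.05 across cultivars, as did 10011 of 20999 entries. Over the days of 1 cultivar, IAA8 was past the threshold in Granny Smith (1.93, adjusted p 0.0266) and IAA9 in Fuji (-1.45, adjusted p 0.00901). IAA6, which the gene table also names, matched no entry. IAA9 fell at day 1 with 1-MCP (-1.48, SE 0.32, adjusted p 0.0334), at the time when IAA11 and IAA12 rose. The median of these 4 genes was 0.41 in Granny Smith and 0.31 in Golden Delicious, and Fuji, with values for 3 of them, had a median of -0.53. Differences of IAA8 in Fuji were -1, 0.33 and 1 at days 7, 14 and 21. Those of IAA24 in Golden Delicious were 0.67, 1 and -1. Such steps occur between values near the floor. The levels of IAA8 and IAA24 are not given here, and a missing call does not show that the treatments were alike. In the gene order of the RefSeq assembly GDT2T_hap1, AUX/IAA7.1 and IAA24 are direct neighbours, while 466 protein-coding genes lay between IAA2 and IAA9 and 1407 between IAA5 and PIN7. IAA11 and IAA12 had none of the named auxin genes on their chromosome.

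Of 3 auxin response factors, the proteins that Aux/IAA repressors bind, 2 rose. Both lacked Fuji values, and 14.5% of such entries were called higher in both cultivars. Their calls rest on days within a cultivar, and alternative runs of them are not given here. ARF2 was higher by 2.18 in Granny Smith (adjusted p 0.00203) and 1.78 in Golden Delicious (adjusted p 0.000815), and ARF3 by 0.80 (adjusted p 0.00408) and 1.49 (adjusted p 0.00654) in the same order. ARF2 matched 2 entries, and the values are of the entry with the higher mean level. The other ARF2 entry is not described here. ARF1 was not called (0.48, SE 0.15, adjusted p 0.0615), although it rose at day 1 by 1.03 (SE 0.18, adjusted p 0.0255). Of 3 carriers, which move auxin across membranes, the efflux carrier PIN7 fell, by 2.00 in Granny Smith (adjusted p 0.00607) and as much in Golden Delicious (adjusted p 0.000534), where 11.9% of entries without Fuji values were called lower in both. PIN10, another efflux carrier, had differences of 2.71 (adjusted p 0.00538) and 1.39 (adjusted p 0.0701), and the influx carrier LAX2 of -1.03 (adjusted p 0.0132) and -0.11 (adjusted p 0.648), each past the threshold in Granny Smith but not in Golden Delicious. No receptor, GH3, SAUR or auxin synthesis gene was identified by name in the gene table.

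**Figure D4:**
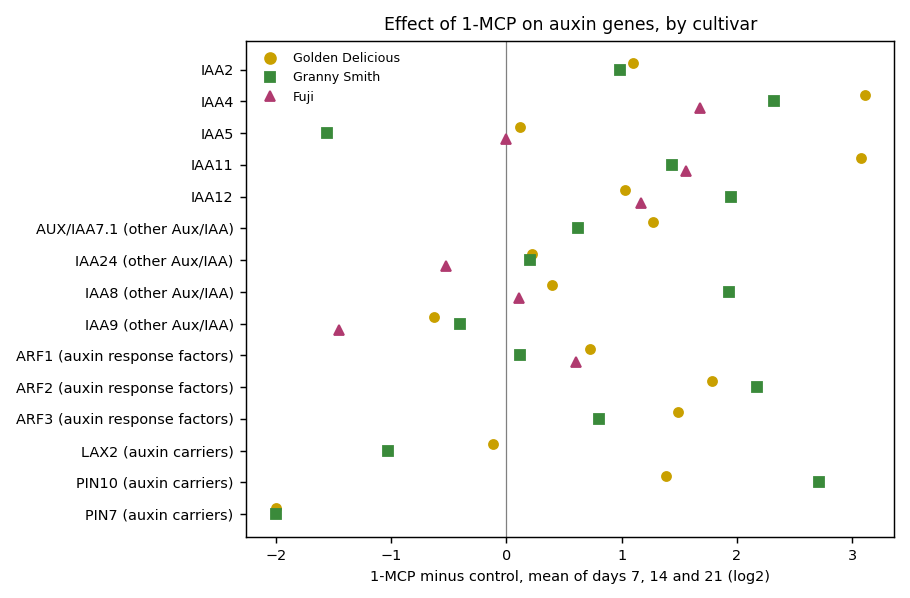
Difference between 1-MCP and control fruit over days 7 to 21 (log2, horizontal axis) for the 5 genes and 10 other named auxin genes, with 1 symbol per cultivar. IAA2, IAA4, IAA11 and IAA12 lie above 0 in each cultivar with values, and PIN7 lies near -2.00 in both.

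Genes of other tissues and of ripening were read in the columns that held them, and MYB1, pp2-1 and PG1 had no Fuji values. The anthocyanin genes ANS and UFGT, active in coloured skin, were at or below -0.67 in all 33 columns, so that these skin markers were near the floor, and MYB1, a regulator of skin colour, did not exceed 3.03. The phloem lectin gene pp2-3 had a median of 6.79 in 1-MCP fruit (5.40 to 8.34) and 7.25 in control fruit (5.23 to 8.50), and pp2-1 one of 6.82 (5.08 to 8.70) and 6.73 (5.80 to 8.95). No marker was set that is held by cortex alone. ACO1, an ACC oxidase of ethylene synthesis, had a median of 9.05 in 1-MCP fruit (5.04 to 14.59) and 14.55 in control fruit (5.63 to 16.12). The polygalacturonase PG1 had one of 3.75 (0.94 to 9.74) and 11.18 (2.55 to 13.14). The medians of these ripening genes thus moved with treatment, whereas their ranges over cultivars and times overlapped. AFS1, a farnesene synthase that is high in apple skin, had a median of 1.11 in 1-MCP fruit (-0.67 to 2.79) and 10.07 in control fruit (0.33 to 11.46). The part of ripening state or of skin in the Aux/IAA differences was not tested.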

How the data were processed

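Total RNA of fruit cortex was sequenced as non-directional 100-base libraries, per the labels, with 99 libraries in 33 groups. The submitters' processing notes name STAR 2.5.1a and HTSeq as tools; the build and normalization are not given in the sources used here. Each deposited value is the log2 mean of 1 group, worked out from the numbers, although the authors call the measure FPKM. Low values (log2 under 2.5) returned to products of whole numbers within a relative tolerance of 0.0003, with 0 entered as 0.5. Near-equal column medians (4.57 to 4.60 in Golden Delicious and Granny Smith) resemble quantile normalization. No level is per length, so genes are not compared in level.

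Identifiers were matched without version to the RefSeq gene table of GDT2T_hap1 (22330 of 55627, 40.1%), used for names and gene order. The filter kept entries that reached log2 2 in 3 or more columns, 20999 in 3 tables and 21397 in 2. Differences of cultivars or days were fitted with limma (version 3.58.1, R 4.3.3; robust eBayes with a trended prior variance), two-sided; SEs are its moderated ones. In a first run the trend followed the mean difference, limma's default here; after its results were seen the trend was set on the mean level, which calls more entries, and the first run is kept as an alternative. Planned tests per library could not be run on group means. Where libraries are not stated to come from separate fruit lots, p-values do not cover that spread.

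The named genes are the 5 members, the auxin genes with a symbol, and for each member but IAA5, which lay near the floor, the 3 named genes with the highest Pearson r. The symbol ARF alone, shared with ADP-ribosylation factors, was left out. The members and lists were chosen with earlier results of these data known. The alternatives concerned filter, added value, centring, moderation, cultivars and days.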

Additional observations from a re-analysis of the deposited data

Results flagged for a closer look

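The 5 differences listed here of the 1-MCP effect between cultivars or times passed a test of the difference itself. Between cultivars, the effect over days 7 to 21 was larger in Golden Delicious than in Fuji by 1.52 for IAA11 and 1.43 for IAA4, and larger in Granny Smith than in Fuji by 0.78 for IAA12. The units of these tests were days, which share a fruit lot within a cultivar. Each of these calls was lost without day 14. Over all entries, calls higher went from 876 to 114 for Golden Delicious over Fuji without that day. For Granny Smith over Fuji they went from 699 to 141. Between Golden Delicious and Granny Smith, which uses no Fuji column, 0 entries were called without day 14. The Fuji control column of day 14 fitted 2 libraries, and its part in the lost calls was not tested. Between times, it was larger over days 7 to 21 than at day 1 by 2.72 for IAA4 and by 0.69 for IAA12. With 1 value per group, no sample could be compared with others of its group. None of the 5 passed in limma with the prior variance following the mean difference (adjusted p under 0.05 for 0 entries, with 2981 to 6021 at an unadjusted p under 0.05 in these comparisons).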

How the results depend on the processing

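No paired analysis was possible because the tables hold 1 mean per group and no value per library that a replicate number could pair; the tests themselves pair the 1-MCP and control columns of a cultivar or day. Of 647 results of single members under an alternative, 523 kept direction and side of the threshold, 102 lost the call, 7 gained one and 15 changed sign; the causes were not tested. Over days 7 to 21 across cultivars IAA4, IAA11 and IAA12 kept their calls under each change of filter, added value, centring, moderation and days. With 1 cultivar left out, 1 to 3 members and 2166 to 3552 entries were called there (3 and 7214 with all cultivars), and the difference ranged from 2.00 to 2.72 for IAA4, 1.499 to 2.32 for IAA11, 1.10 to 1.55 for IAA12 and -0.78 to 0.058 for IAA5.

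Counts of members called in other comparisons moved more. With 1 cultivar left out they were 0 to 2 at day 1, 2 at day 7, 1 to 2 at days 14 and 21, 0 to 1 at 2 months, 0 to 1 for the change from day 1 and 0 to 1 for either treatment against harvest. Without a filter they were 0 at days 1, 14 and 21 and at 2 months, 1 at day 7, 1 for the change from day 1, 0 for control fruit against harvest, 2 within Golden Delicious, 2 within Granny Smith, 1 within Fuji and 0 for Golden Delicious or Granny Smith over Fuji, and 483 entries without Fuji values were called in both cultivars, beside 5646. Without the trend and robust options they were 0 at day 1 and 2 months, 1 at days 7, 14 and 21, and 0 for the change from day 1, for control fruit against harvest and for either difference from Fuji, with 3481 entries called in both cultivars. With the prior variance following the mean difference, added after the data were seen, they were 0 at each single time, for each change over time, against harvest and between cultivars. With 4 added to the values, 1 member was called between Golden Delicious and Granny Smith, where 0 had been, 5 rather than 4 within Granny Smith, and 2 rather than 3 at day 1. Without day 7, 1 member was called for the change from day 1, 1 for the change to 2 months, 2 between Golden Delicious and Granny Smith, 0 for Golden Delicious over Fuji and 2 for Granny Smith over Fuji. Without day 14, 2 were called within Golden Delicious and 0 for either difference from Fuji, with 734 entries called in both cultivars. Without day 21, 1 was called for Golden Delicious over Fuji and 0 for Granny Smith over Fuji, with 3297 entries called in both cultivars.

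The 15 changed signs were of differences not called with all columns. With 1 cultivar left out, IAA5 ranged from -1.29 to 0.32 at day 14, -0.63 to 0.091 at day 21, -0.75 to 0.77 at 2 months, -0.29 to 0.63 in 1-MCP fruit against harvest and -0.35 to 1.35 in control fruit against harvest. IAA4 ranged from -0.021 to 0.42 at 2 months, IAA11 from -0.066 to 1.00 in 1-MCP fruit against harvest, and IAA12 from -0.73 to 0.019 for the change to 2 months and from -0.20 to 0.79 in control fruit against harvest. Without day 14, IAA5 stood at -0.15 within Golden Delicious and at -0.15 for Golden Delicious minus Fuji, and IAA11 at 0.58 for Granny Smith minus Fuji. Without day 7, IAA2 stood at -0.12 for Golden Delicious minus Granny Smith, and without day 21 IAA12 at 0.046 for Golden Delicious minus Fuji.

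Each member had 1 entry, so no other entry of a member could be tried, and IAA5 has no value under the stricter filter. With no spread between libraries and no depth, the precision of a single level is unknown, which weighs most on IAA5 near the floor.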
